A study of Mus musculus with 12 samples.

Results

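Lipoprotein lipase (Lpl) and 9 genes of lipid uptake, transport and storage were examined in mouse blood cells. The 10 genes were Lpl, Apoe, Abca1, Abcg1, Plin2, Cd36, Fabp4, Fabp5, Vldlr and Pparg. They were matched by symbol to the array annotation, which gave them 25 probe sets (sets of short probes that each read 1 transcript region) with exactly 1 symbol. All 10 were found among the 18194 genes that have such a probe set. The list was put together with the signals of all 4 groups known. The genes were thus selected on their signals, and Lpl and Apoe were known to differ widely between plus and minus arrays. Differences of the 10 genes are therefore given as descriptions, without p-values.

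The study used 12 one-colour Affymetrix arrays of RNA from mice lacking or carrying the Stat5a and Stat5b genes. The groups, with 3 arrays each, were Stat5 knockout plus, control plus, Stat5 knockout minus and control minus, where plus and minus are the signs in the titles. The treatment protocols read the sign as given CMP or given none, and what CMP is, the kind of blood cell, the age and strain of the mice, and how the Stat5 genes were removed are not given in the sources used here. Nor do the labels say whether arrays of a group came from separate animals, so the errors and p-values cover no more than the spread between these samples. Titles were written in 3 ways, and the arrays of one way form a naming set (A, B or C) that holds 1 array of every group.

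Each array was scaled to the same trimmed mean by the authors, and array medians lay between 59.7 and 114 signal units. The deleted genes followed the titles: the brighter probe set of Stat5a lay at 28.9 to 90.1 in the knockouts, against 660 to 1436 in the controls, and that of Stat5b at 7.28 to 82.8, against 1036 to 2177. The knockout minus array of set B, which its protocol calls a control, had knockout signals. All 6 pan blood cell markers lay above the level filter, a mean of 6.76 on the log2 scale, and so did all 8 markers of myeloid progenitors. Of the adipocyte markers, 6 of 8 had a probe set and 1 lay above the filter, with adiponectin (Adipoq) at 1.61 to 24.4 and leptin (Lep) at 2.99 to 33.0. Set B stood apart in its beta-actin signals, and whether RNA quality or labelling differed was not tested. Beta-actin probe sets near the 3' end gave 19.7 to 54.8 times the signal of those near the 5' end in set B. In the other 8 arrays they gave 1.19 to 4.40 times that signal. Compared within set and genotype, this actin ratio was higher in the plus array 6 of 6 times.

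Lipoprotein lipase is secreted and cuts triglycerides in circulating lipoproteins, which frees fatty acids for uptake. The VLDL receptor (Vldlr) binds lipoproteins that carry apolipoprotein E (Apoe), and Cd36 takes up fatty acids. Inside the cell, fatty acid binding proteins (Fabp4, Fabp5) carry the acids, perilipin 2 (Plin2) coats lipid droplets, Abca1 and Abcg1 export cholesterol, and the nuclear receptor Pparg switches on many of these genes in adipocytes and macrophages. Macrophages are the blood-derived cells best known for such a programme.

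RefSeq start-site windows of GRCm38.p6, 250 bases before a transcript start, covered 6 of the 10 genes in 11 windows: Apoe, Abca1, Plin2, Cd36, Vldlr and Pparg. Lpl, Abcg1, Fabp4 and Fabp5 had no entry. Both strands were searched for 4 motifs, TTCNNNGAA, the form bound by STAT proteins, TGATGNAA, the core of the composite site of ATF4 and C/EBP, and the direct repeats of AGGTCA with 1 base between them (bound by PPAR with RXR) and with 4 bases between them (bound by LXR with RXR). TGATGNAA was found in 2 windows, 1 of Vldlr and 1 of Apoe, and in 3.45% of all 32851 windows. Both genes also had a window or windows without a match. None of the 11 windows held TTCNNNGAA (7.02% of all windows) or either repeat (0.0335% and 0.0152%). The 2 windows with a match are printed because Vldlr and Apoe differed most between plus and minus arrays after Lpl. They are shown 5' to 3', with the match in capitals, which begins at position -200 from the start in Vldlr and -79 in Apoe. In both it lies on the reverse strand. A match of letters shows no binding.
Vldlr, chr19:27216770-27217019, plus strand: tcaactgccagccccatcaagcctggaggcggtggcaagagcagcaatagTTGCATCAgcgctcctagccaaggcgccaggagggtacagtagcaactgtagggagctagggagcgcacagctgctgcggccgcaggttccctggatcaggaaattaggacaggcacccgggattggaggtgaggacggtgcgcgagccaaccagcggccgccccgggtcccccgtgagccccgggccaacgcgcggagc
Apoe, chr7:19698622-19698871, minus strand: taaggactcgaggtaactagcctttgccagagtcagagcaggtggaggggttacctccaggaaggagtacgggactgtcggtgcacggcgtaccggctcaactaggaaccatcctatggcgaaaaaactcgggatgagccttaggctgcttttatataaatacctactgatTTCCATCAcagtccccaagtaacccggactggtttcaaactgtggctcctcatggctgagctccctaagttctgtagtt

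Plus arrays were first set against minus arrays, within each genotype. Lpl stood far higher in the plus arrays of both genotypes, Vldlr stood higher and Apoe lower, while the differences of Abca1, Abcg1, Plin2 and Fabp5 lay between -0.65 and 0.43 on the log2 scale. Cd36, Fabp4 and Pparg lay too low to be tested. Signals were taken as log2(signal + 32) and fitted in limma with the naming set as a block, and a gene is called where its adjusted p is below 0.05 over the 10583 genes that passed the level filter. Of the 7 members that passed it, 2 were called higher and 1 lower in knockouts, where 18.8% of all genes were called, 9.03% higher and 9.72% lower. In controls the counts were likewise 2 and 1, and 22.1% of all genes were called, 10.6% higher and 11.6% lower. The same 3 genes did not overlap between the 6 plus and the 6 minus arrays, as was so for 5.73% of all genes in the higher and 5.22% in the lower direction. Between the 3 plus and 3 minus arrays of knockouts those shares were 12.2% and 11.4%. Since the list was chosen with these values known, nothing is read from the counts. The probe set taken for each of the 7 had all 4 group means above the filter.

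Lpl, on chromosome 8 at 68880555 to 68906932 of GRCm38.p6, has 2 probe sets. The brighter one gave signals of 9651, 20574 and 13474 in the knockout plus arrays of sets A, B and C, against 104, 146 and 107 in the knockout minus arrays. In controls it gave 3314, 5104 and 13610 in the plus arrays and 134, 81.9 and 209 in the minus arrays. No plus array came near a minus array: the lowest plus signal was 3314 and the highest minus signal 209. The difference on the log2 scale was 6.54 ± 0.39 in knockouts (SE, n = 3 arrays a group) and 5.22 ± 0.39 in controls, or 93.1-fold and 37.2-fold of signal + 32. It was 6.16, 6.86 and 6.61 in knockouts of sets A, B and C and 4.33, 5.49 and 5.82 in controls. The dimmer probe set moved less, by 3.57 ± 0.61 in knockouts and 2.54 ± 1.34 in controls (SD over 3 sets). Its minus signals were only 19.8 to 34.6, near the added constant, so that its difference is understated. With the actin ratio as a covariate the difference of the brighter set was 6.38 in knockouts and 5.07 in controls, and without set B it was 6.38 and 5.08.

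The groups of Lpl fell in the order knockout plus, control plus, control minus, knockout minus by their mean log2 level, at 13.8 ± 0.55, 12.6 ± 1.04, 7.37 ± 0.54 and 7.22 ± 0.22 (SD, n = 3 each). Both plus groups stood apart from both minus groups. The 2 plus groups overlapped, as did the 2 minus groups. In bulk RNA, fewer cells of a type and less RNA per cell cannot be told apart.

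The summed signals of macrophage markers and of endothelial markers were higher in the plus array of all 3 sets in both genotypes. Of 12 macrophage markers 11 had a probe set and 5 lay above the filter. Their summed signal was 14482 to 29335 in knockout plus and 10129 to 21673 in knockout minus arrays, and 7528 to 15736 in control plus and 6551 to 13232 in control minus arrays. Set by set the sum was higher in the plus array by 0.56, 0.44 and 0.19 in knockouts and by 0.20, 0.25 and 0.12 in controls on the log2 scale (sets A, B and C). Csf1r weighed most in it, with a median signal of 8219, followed by Lyz2 with 3040. The sum of pan blood cell markers differed by 0.40, -0.03 and 0.36 in knockouts and by 0.44, 0.57 and 0.24 in controls. The complement gene C1qa (2.63 to 7.69) and the scavenger receptor Marco (1.60 to 16.5) were near 0 in all 12 arrays. All 6 endothelial markers had a probe set and 3 lay above the filter. The sum of all 6 was 770 to 2492 in knockout plus and 567 to 1704 in knockout minus arrays, and 2006 to 2939 in control plus and 1011 to 1952 in control minus arrays. By set it was higher by 0.24, 0.44 and 0.55 in knockouts and 0.48, 0.99 and 0.59 in controls. Whether macrophages or endothelial cells were present, and their part in the Lpl difference, was not tested. The summed signal of adipocyte markers was 181 to 204 in knockout plus and 176 to 270 in knockout minus arrays, and 182 to 233 in control plus and 150 to 241 in control minus arrays.

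**Figure D1:**
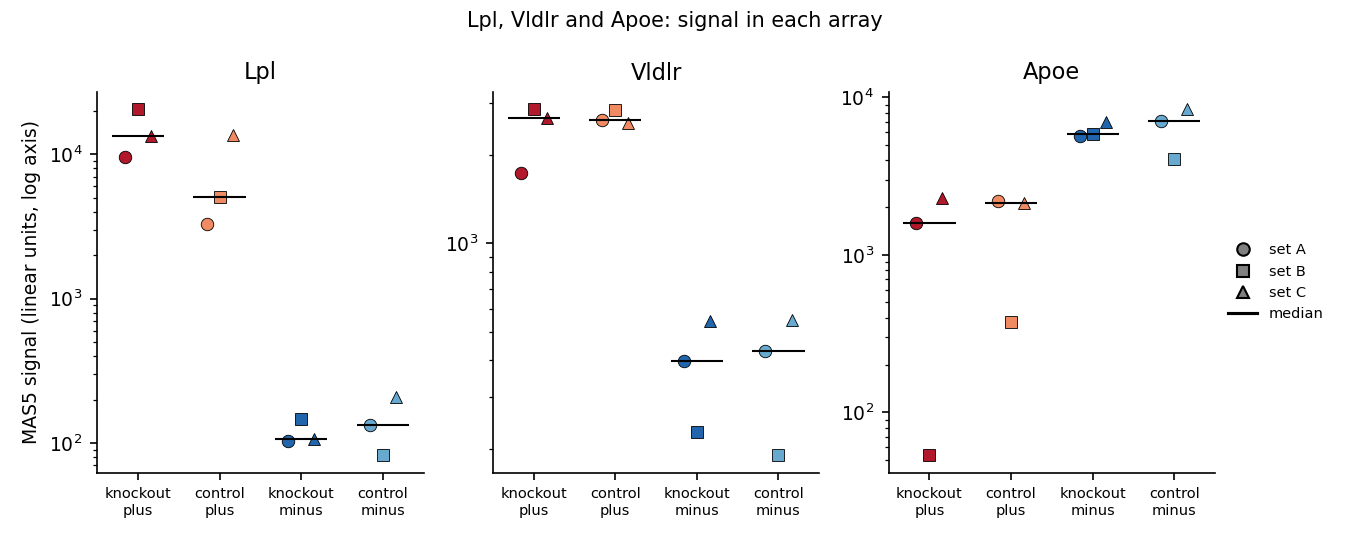
MAS5 signal (log axis) of Lpl, Vldlr and Apoe in the 12 arrays, by group, with the naming set as symbol and the group median as a line. All 6 plus arrays lie above all 6 minus arrays for Lpl and Vldlr and below them for Apoe, whose set B plus arrays are the lowest at 53.3 and 372.

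Vldlr, on chromosome 19 at 27216480 to 27254231, was read by 6 probe sets. The brightest gave 1734, 2860 and 2669 in the knockout plus arrays of sets A, B and C, against 398, 229 and 545 in the knockout minus arrays. In controls it gave 2628, 2850 and 2568 in the plus and 429, 190 and 547 in the minus arrays. The lowest plus signal, 1734, was above the highest minus signal, 547. The log2 difference was 2.58 ± 0.32 in knockouts and 2.80 ± 0.32 in controls (SE, n = 3). Without set B it was 2.13 and 2.35. This probe set carries the suffix x, which Affymetrix gives to sets that can also match other transcripts. The 5 others moved the same way in 3 of 3 sets of each genotype. In 4 of them the mean difference was 2.05 to 2.61 in knockouts and 1.94 to 2.76 in controls. The dimmest, at 21.8 to 122 in plus and 6.96 to 21.4 in minus arrays, differed by 0.70 ± 0.29 in knockouts and 1.13 ± 0.46 in controls (SD over 3 sets). The start-site window with the TGATGNAA match, printed above, belongs to this gene, while its window at 27216234 to 27216483 held no match.

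**Figure D2:**
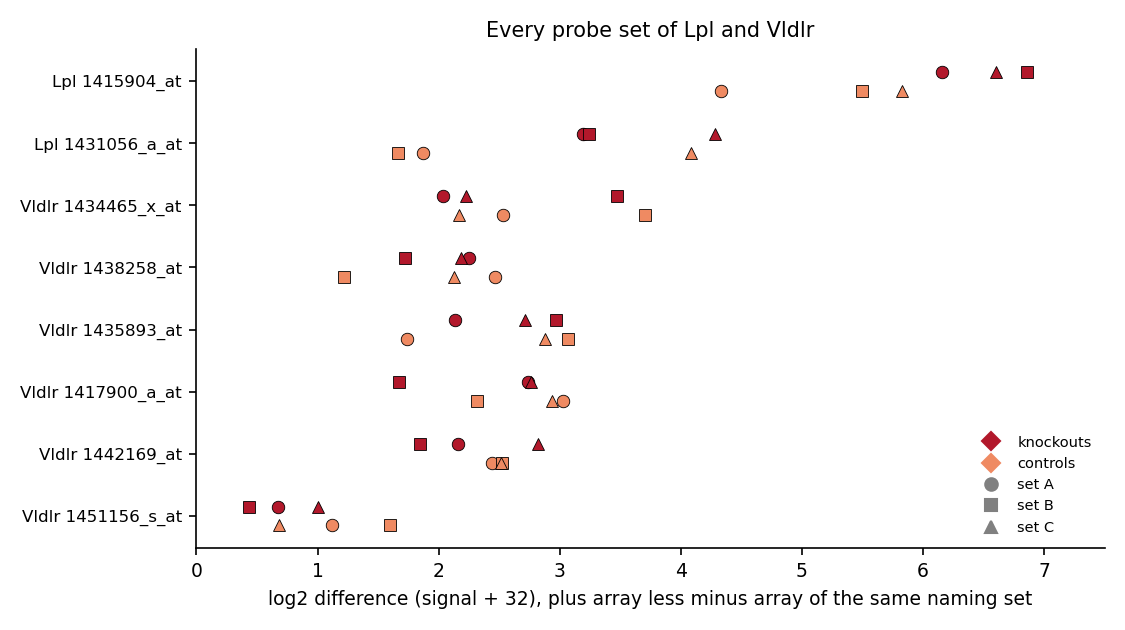
Log2 difference between the plus and the minus array of the same naming set and genotype, for the 2 probe sets of Lpl and the 6 of Vldlr (red, knockouts; orange, controls; symbols, naming sets). Every point lies above 0, from 0.43 to 6.86.

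Apoe, on chromosome 7 at 19696244 to 19701310, has 1 probe set with a single symbol. It gave 1597, 53.3 and 2311 in the knockout plus arrays of sets A, B and C, against 5653, 5878 and 6992 in the knockout minus arrays. In controls it gave 2197, 372 and 2120 in the plus and 7047, 4071 and 8394 in the minus arrays. Every plus array lay below every minus array, and the 2 plus arrays of set B were the lowest. The log2 difference was -3.17 ± 0.67 in knockouts and -2.33 ± 0.67 in controls (SE, n = 3). By set it was -1.80, -6.11 and -1.58 in knockouts and -1.67, -3.34 and -1.97 in controls. Without set B it was -1.69 in knockouts and -1.82 in controls, and both stayed called. With the actin ratio as a covariate it was -2.81 and -2.0, and neither was called. In knockouts it was -2.04 without the plus array of set B, and still called. In controls the call also ended without any 1 of the 6 control arrays, without set A and without set C.

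The summed marker signals of erythroid cells, mast cells and myeloid progenitors were lower in the plus array of all 3 sets in both genotypes, as was Apoe. Of 8 erythroid markers 7 had a probe set and 5 lay above the filter. The highest median signals were those of Car1 (2079), Gata1 (1954), Ermap (1397) and Klf1 (1159), and Car1 reached 21113. Hba-a1 (3.53 to 102) and Alas2 (2.59 to 74.3) lay below the filter. The summed signal of the 7 was 1081 to 3223 in knockout plus and 8029 to 24413 in knockout minus arrays. It was 3093 to 6198 in control plus and 9412 to 43820 in control minus arrays. Of 8 mast cell and basophil markers 7 had a probe set and 6 lay above the filter. Their sum was 1800 to 11073 in knockout plus and 12244 to 16032 in knockout minus arrays, and 7090 to 9059 in control plus and 14331 to 16342 in control minus arrays. The sum of the 8 myeloid progenitor markers was 55431 to 77610 in knockout plus and 65012 to 129258 in knockout minus arrays, and 51036 to 57999 in control plus and 60468 to 104164 in control minus arrays. By set it differed by -0.14, -0.74 and -0.23 in knockouts and -0.24, -0.84 and -0.37 in controls on the log2 scale. The part of these cells in the Apoe difference was not tested.

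Plin2, Abca1, Abcg1 and Fabp5 differed far less between plus and minus arrays. Plin2, on chromosome 4, gave 4624, 3579 and 4219 in the knockout plus arrays of sets A, B and C, against 2423, 3633 and 3245 in the knockout minus arrays. In controls the values were 3391, 4110 and 3141 in the plus and 2401, 3109 and 2730 in the minus arrays. The plus array was higher in 5 of the 6 pairs, the exception being the knockouts of set B. The 3 control plus arrays lay above the 3 control minus arrays, as was so for 12.6% of all genes, while the knockout groups overlapped. The log2 difference was 0.43 with a 95% interval of 0.01 to 0.84 in knockouts, and 0.36 with an interval of -0.05 to 0.78 in controls, and neither was called.

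Fabp5, on chromosome 3, was lower in the plus array of all 3 control pairs. It gave 3853, 4350 and 5363 in the control plus arrays of sets A, B and C, against 6184, 9224 and 6123 in the control minus arrays, which did not overlap, as was so for 12.5% of all genes in this direction. In knockouts it gave 3920, 13382 and 6958 in the plus and 6819, 10951 and 6304 in the minus arrays, which did. The log2 difference was -0.12 (95% interval -0.70 to 0.45) in knockouts and -0.65 (-1.22 to -0.07) in controls. The dimmer probe set of Fabp5 differed by -0.58 ± 0.90 in knockouts and -1.02 ± 0.25 in controls (SD over 3 sets).

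The cholesterol exporters gave intervals that held 0. Abca1, on chromosome 4, lay at 804 to 1059 in knockout plus and 570 to 889 in knockout minus arrays, and at 774 to 872 in control plus and 700 to 967 in control minus arrays. Its log2 difference was 0.30 (95% interval -0.12 to 0.72) in knockouts and -0.07 (-0.49 to 0.35) in controls. Abcg1, on chromosome 17, lay at 1059 to 1942 in knockout plus and 1231 to 2121 in knockout minus arrays, and at 2320 to 3066 in control plus and 1482 to 2739 in control minus arrays. Its difference was -0.22 (-0.80 to 0.36) in knockouts and 0.41 (-0.17 to 0.99) in controls. The dimmer probe sets lay lower: the other 2 of Abca1 differed by 0.04 and 0.20 in knockouts and 0.21 and -0.05 in controls, and that of Abcg1 by -0.88 ± 1.5 and 0.16 ± 0.73 (SD over 3 sets).

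**Figure D3:**
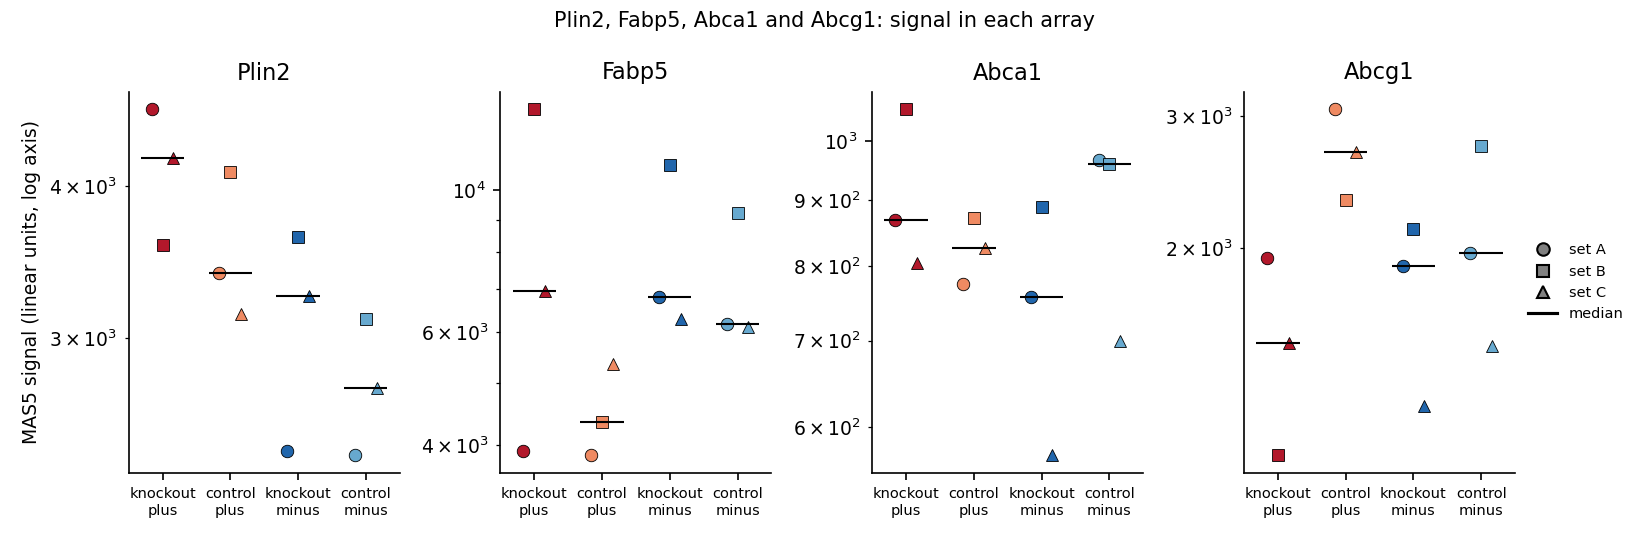
MAS5 signal (log axis, a separate range per panel) of Plin2, Fabp5, Abca1 and Abcg1 in the 12 arrays, by group, with the naming set as symbol and the median as a line. The 6 plus and the 6 minus arrays overlap in each panel, and the 3 knockout plus arrays of Abcg1 (1059 to 1942) lie below the 3 control plus arrays (2320 to 3066).

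Cd36, Fabp4 and Pparg were below the filter. Pparg had 1 probe set, at 1.44 to 26.2 in plus and 2.64 to 9.91 in minus arrays. Fabp4 had 4 probe sets, and the brightest lay at 22.0 to 106 in plus and 5.85 to 84.2 in minus arrays. The probe set of Cd36 with the highest mean gave 6.6, 7.15 and 71.3 in the knockout plus arrays of sets A, B and C, against 13.1, 6.34 and 10.3 in the knockout minus arrays. In controls it gave 22.6, 8.68 and 213 in the plus and 14.8, 48.3 and 22.3 in the minus arrays. Its highest signals were thus those of the set C plus arrays. The 2 dimmer probe sets of Cd36 reached 152 and 51.4, both in control plus arrays, and the 3 dimmer ones of Fabp4 reached 73.0, 62.0 and 25.3. When all genes were fitted without the filter, none of the 3 was called in any comparison, and their plus against minus differences were 0.21 to 0.37 in knockouts and -0.03 to 0.47 in controls.

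Knockouts were then set against controls within the plus and within the minus arrays. Across all genes 2 were called in each comparison (0.0189% of all genes), both lower, and none was a member. No member separated all 6 knockout from all 6 control arrays, as 0.0472% of all genes did in the lower direction and 0% in the higher. None separated the 3 knockout from the 3 control minus arrays, as 1.46% of genes did in the higher and 2.85% in the lower direction. In minus arrays the log2 differences of the 7 members lay between -0.24 and 0.16. In plus arrays they lay between -0.86 and 1.17, and the 95% intervals of Lpl, Abcg1 and Fabp5 left out 0. Over all genes, 250 in minus and 1038 in plus arrays had an unadjusted p below 0.05 in limma. The members' values are descriptions here too, since they were chosen with these signals known.

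Lpl in plus arrays was higher in knockouts by 1.17 ± 0.39 (SE, n = 3; 95% interval 0.32 to 2.03). By set this difference was 1.53 in A, 2.0 in B and -0.01 in C, so that it was not seen in set C, where the 2 signals were 13474 in the knockout and 13610 in the control. The dimmer probe set gave the same picture with 1.27, 1.27 and 0.01. In minus arrays the difference was -0.15 ± 0.39, with an interval of -1.01 to 0.71. With array weights, which give deviating arrays less influence, the difference in plus arrays was 0.40.

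Abcg1 in plus arrays was lower in knockouts by -0.86 ± 0.27 on the log2 scale (95% interval -1.44 to -0.28), and by -0.65, -1.11 and -0.83 in sets A, B and C. The 3 knockout plus arrays (1942, 1059 and 1494) did not overlap the 3 control plus arrays (3066, 2320 and 2687), as was so for 3.04% of all genes in this direction and 2.62% in the other. The dimmer probe set of Abcg1 gave 0.20, -3.35 and -0.39 by set and thus did not repeat the pattern in set A. Fabp5 was higher in the knockout plus arrays by 0.67 ± 0.26 (interval 0.10 to 1.25), with 0.02, 1.61 and 0.37 by set. Without set B it was 0.20.

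For Vldlr the interval of the knockout difference was -0.89 to 0.53 in plus and -0.67 to 0.75 in minus arrays. For Apoe it was -2.33 to 0.61 and -1.49 to 1.45, the widest of the 7. Plin2 had intervals of -0.19 to 0.64 and -0.25 to 0.57, and Abca1 of -0.29 to 0.55 and -0.66 to 0.17.

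**Figure D4:**
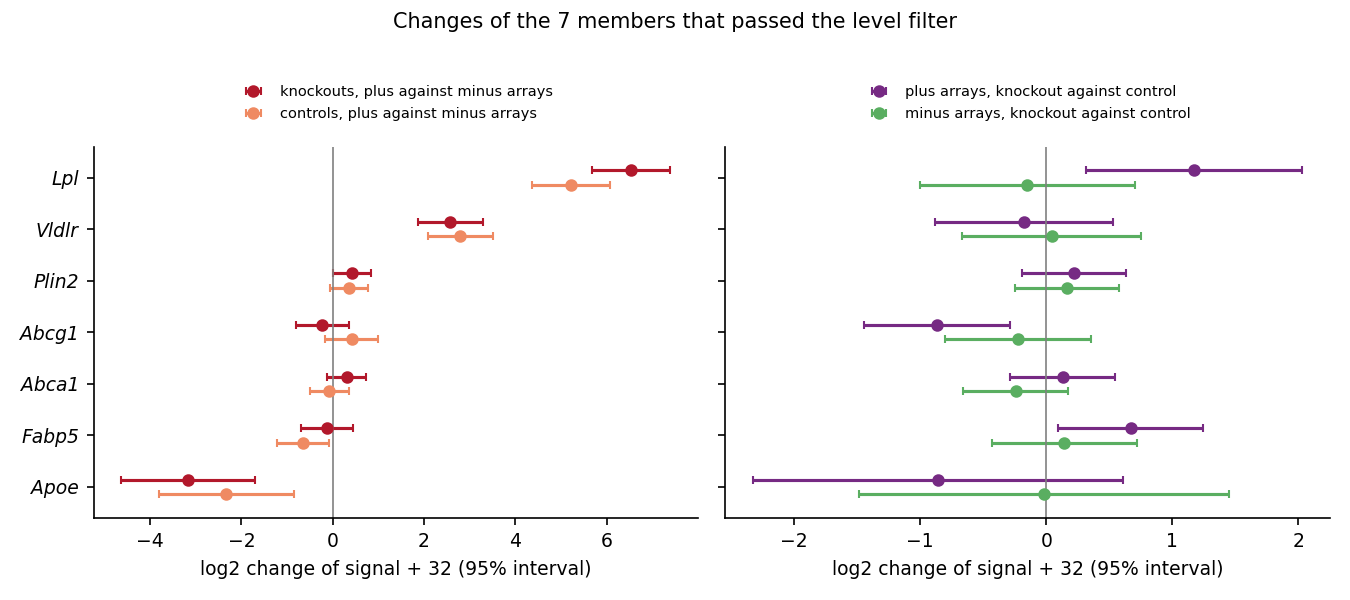
Log2 change of signal + 32 with 95% intervals for the 7 members above the level filter, plus against minus arrays on the left (red, knockouts; orange, controls) and knockouts against controls on the right (purple, plus arrays; green, minus arrays). On the left Lpl, Vldlr and Apoe lie farthest from 0, the intervals of Plin2 in knockouts and Fabp5 in controls just leave out 0, and on the right the intervals of Lpl, Fabp5 and Abcg1 in plus arrays leave out 0, though of these only Lpl, Vldlr and Apoe on the left were called.

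The last comparison asked whether the plus against minus difference depended on genotype. No gene was called (0% of 10583, with 223 at an unadjusted p below 0.05 in limma). As a description, the difference of Lpl was larger in knockouts by 1.32 ± 0.55 on the log2 scale (95% interval 0.11 to 2.54), with 1.83, 1.36 and 0.78 in sets A, B and C. For the 6 others the interval held 0, and Apoe had the widest, -2.92 to 1.24. Without the knockout plus array of set B the Apoe value was 0.28 in place of -0.84.

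A wider list of 73 lipid handling genes outside the 10 was tested in the same comparisons. It too was chosen with earlier results of these data known, so its counts and p-values are no independent test. Of the 73 genes, 67 had a probe set of their own symbol and 51 passed the filter. Plus against minus, 9 rose and 4 fell in knockouts and 12 rose and 3 fell in controls. Their median change was -0.02 in knockouts and 0.14 in controls, against -0.06 and -0.02 over all genes. The share called was thus 13 of 51 in knockouts, beside 18.8% of all genes, and 15 of 51 in controls, beside 22.1%. Both counts hold Gpat3, which passed the filter only through the plus arrays. That of knockouts also holds Lmf1, whose mean in knockout plus arrays lay below the filter. Of the 13 and the 15, 9 were the same genes, and all 9 had the same sign in both genotypes.

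These counts moved with the arrays used. Without set A they were 3 in knockouts and 8 in controls, and without set C 0 and 3. With the actin ratio as a covariate they were 2 and 9. Without the block for naming sets they were 2 and 3. In knockouts, 4 were called without the minus array of set B, whose labels conflict, 8 without that of set A and 5 without that of set C, and 8 without the plus array of set B or that of set C. In controls, 9 were called without the minus array of set B and 6 without that of set C, and 7 and 8 without the plus arrays of the same sets.

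Among partners of the lipase and other lipases, 2 of 5 tested genes rose and 2 fell in knockouts, where 9.03% of all genes rose and 9.72% fell. In controls 1 rose, where 10.6% of all genes rose and 11.6% fell. With so few genes nothing is read from these counts. The lysosomal acid lipase Lipa rose by 1.09 ± 0.22 in knockouts (SE, n = 3; limma adjusted p = 0.00743, in 3 of 3 sets), and its value in controls was 0.47 (adjusted p = 0.153). With the actin ratio as a covariate the change of Lipa in knockouts was 0.65 with an adjusted p = 0.221. Sel1l, which helps newly made lipase leave the endoplasmic reticulum, rose by 0.76 ± 0.21 in knockouts (adjusted p = 0.0283) and 0.66 in controls (adjusted p = 0.0434). The genes that fell in knockouts were Angptl4, a secreted inhibitor of the lipase (-1.18 ± 0.29, adjusted p = 0.0159), and Lmf1, which is needed for its folding (-1.38 ± 0.38, adjusted p = 0.0264). In controls they were at -0.54 (adjusted p = 0.194) and -0.40 (adjusted p = 0.477). These calls did not hold under many alternatives. With the actin ratio as a covariate the adjusted p in knockouts was 0.277 for Angptl4, 0.202 for Lmf1 and 0.184 for Sel1l, and without set C it was 0.107, 0.0853 and 0.178. The calls also ended without set A, without the block, and without the minus array of set B (adjusted p = 0.0502, 0.112 and 0.0929) or that of set C (adjusted p = 0.069, 0.0902 and 0.106). The call of Angptl4 and that of Sel1l ended without the minus array of set A (adjusted p = 0.0518 and 0.0657), that of Sel1l also without the plus array of set A or B (adjusted p = 0.0509 and 0.0795), and that of Lmf1 without the plus array of set B (adjusted p = 0.0876). In controls the call of Sel1l ended in 16 of 26 alternatives. Sel1l, Angptl4 and Lmf1 were named after their values were seen. Lmf1 had a group mean below the filter in knockout plus arrays, where set B gave 5.92 against 148 and 150 in sets A and C.

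Receptor and sterol genes followed. Mylip, a ubiquitin ligase that removes lipoprotein receptors, rose by 1.16 ± 0.21 in knockouts (adjusted p = 0.00423) and 1.10 ± 0.21 in controls (adjusted p = 0.00449). Its signals were 4252 to 6065 in knockout plus and 1903 to 2699 in knockout minus arrays. They were 3712 to 5810 in control plus and 1588 to 2242 in control minus arrays. There was no overlap within a genotype, as was so for 12.2% of all genes in knockouts and 12.6% in controls in this direction. With the actin ratio as a covariate Mylip was not called (adjusted p = 0.163 and 0.114). Sort1, a sorting receptor, was at -0.45 in knockouts (adjusted p = 0.0923) and fell by 0.76 ± 0.18 on the log2 scale in controls (adjusted p = 0.0102). Its call ended in 6 of 26 alternatives, among them the one without the control minus array of set C (adjusted p = 0.0546). Npc1, which exports cholesterol from lysosomes, rose by 0.83 ± 0.23 in knockouts (adjusted p = 0.0268) and 1.39 ± 0.23 in controls (adjusted p = 0.00188). Stard4, a cytosolic sterol carrier, rose by 0.77 ± 0.18 in knockouts (adjusted p = 0.0126) and 0.88 ± 0.18 in controls (adjusted p = 0.00523).

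Of 15 genes of lipid droplets and triglyceride synthesis or breakdown, 3 rose in knockouts, beside 9.03% of all genes. In controls 4 rose, beside 10.6%, and none fell in either genotype. Without Gpat3 the counts were 2 and 3 of 14. Gpat3, which adds the first acyl chain in triglyceride synthesis, gave 118, 613 and 379 in the knockout plus arrays of sets A, B and C, against 6.95, 2.68 and 25.3 in the knockout minus arrays. In controls it gave 54.8, 368 and 437 in the plus and 10.1, 37.3 and 20.7 in the minus arrays. It rose by 3.0 ± 0.44 (adjusted p = 0.00122) and 2.24 ± 0.44 (adjusted p = 0.00464). Gpat3 passed the filter only through the plus arrays, so that a difference was needed for it to be tested. Lpin1, a phosphatidate phosphatase of the same route, rose by 0.87 ± 0.20 in knockouts (adjusted p = 0.0123) and 0.86 ± 0.20 in controls (adjusted p = 0.0102). Also called in controls were Mgll (1.36 ± 0.34) and Abhd5 (0.78 ± 0.23), which act in triglyceride breakdown and were named after their values were seen. Of 12 genes of fatty acid binding and oxidation, 1 fell in knockouts, beside 9.72% of all genes. In controls 2 rose and 1 fell, beside 10.6% and 11.6%. The 1 that fell in both was Acsl5, a long-chain acyl-CoA synthetase, by 1.13 ± 0.24 (adjusted p = 0.00859) and 1.34 ± 0.24 (adjusted p = 0.00291). In knockouts the calls of Acsl5 and Stard4 ended without the minus array of set B (adjusted p = 0.0514 and 0.0593), and that of Lpin1 without the minus array of set C (adjusted p = 0.0543). Without set C no gene of the wider list was called in knockouts, Npc1 included. The adjusted p was then 0.0706 to 0.174 for Mylip, Lipa, Acsl5, Lpin1 and Stard4. Gpat3 was tested in only 19 of 26 alternatives, and in knockouts it was called in those 19. Of 4 nuclear receptor genes tested, 1 fell in knockouts, and 1 rose and 1 fell in controls, beside the same shares of all genes. With so few genes nothing is read from these counts.

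**Figure D5:**
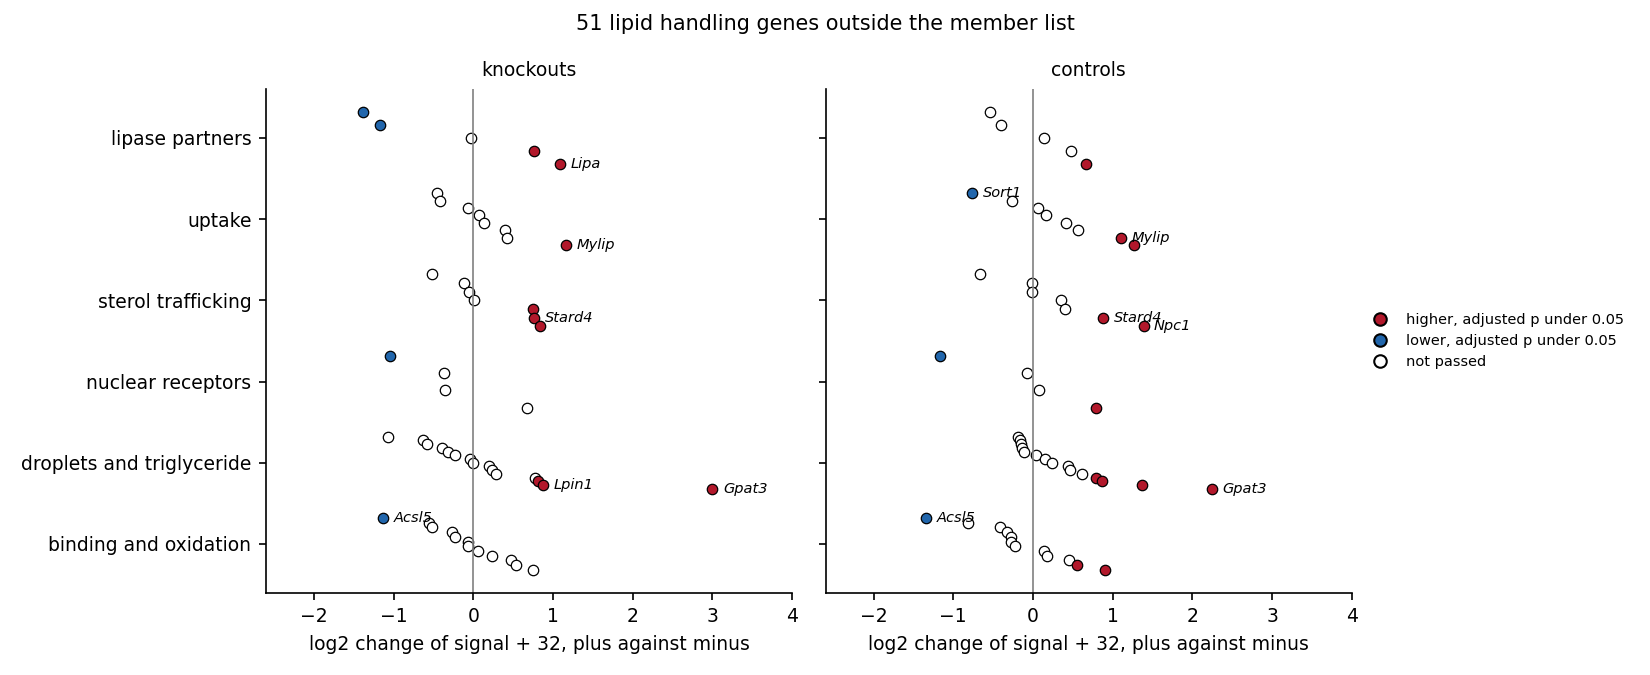
Log2 change, plus against minus arrays, of the 51 tested lipid handling genes outside the 10 members, by role, in knockouts (left) and controls (right). Filled points passed an adjusted p of 0.05 (red higher, blue lower): 13 in knockouts and 15 in controls, with the genes of smallest p labelled.

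Between genotypes, 0 of the 51 genes were called by limma in either plus or minus arrays, with 6 and 0 at an unadjusted p below 0.05. Over all 10583 genes, 1038 and 250 were at such a p. The dependence of the plus difference on genotype gave 0 of 51 called and 0 at an unadjusted p below 0.05, beside 223 of all 10583 genes.

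The genes whose log2 signals most resembled Lpl over the 12 arrays were Slc7a11, the cystine transporter (Pearson r = 0.98), Fam214a (0.98), Rasgef1b, a Ras family exchange factor (0.98), the membrane protein Emp1 (0.98) and the growth factor Pdgfc (0.98). Those most like Apoe were Supt3 (0.99), the translation factor Eif3b (0.98), the DNA-binding protein Nabp2 (0.98), the Hsp90 cochaperone Ahsa1 (0.97) and Spout1 (0.97). The arrays fall into a plus and a minus cluster for most of these genes, and arrays of a set share deviations, so the coefficients are descriptions of likeness only. Slc7a11, for example, lay at 466 to 1220 in plus and 10.2 to 39.2 in minus arrays, and Supt3 at 72.4 to 379 in plus and 419 to 636 in minus arrays.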

How the data were processed

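RNA was measured on 12 biotin-labelled one-colour arrays. Per the labels and the submitters' processing notes, the authors deposited 1 linear intensity for each of 45101 probe sets, from MAS5, whose version is not given in the sources used here. Leaving out 2% of values at either end, every array averaged 500.0. An array has no counting depth, so the number of arrays limits precision.

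Of the probe sets, 34958 had 1 symbol in the platform annotation, 932 several and 9211 none. Each gene took its single-symbol probe set with the highest mean of log2(signal + 32), and a gene was tested if that mean reached 6.76, the median over probe sets. One limma 3.58.1 fit (R 4.3.3, eBayes with trend) held the 4 groups, by title, and the naming set as block, with 6 residual and 5.78 prior degrees of freedom. P-values were two-sided and adjusted over 10583 genes by the Benjamini-Hochberg method, threshold 0.05. The naming set was kept as a block because earlier processing of these data had kept it. Deviations from group means correlated between 0.41 and 0.77 for 18 array pairs sharing a set. For 36 pairs sharing neither set nor group the range was -0.64 to 0.28. Deviations cancel out within a group, so these ranges are not independent. The chain was tested on simulated data.

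The members and lists were chosen with earlier results of these data known. All members were named in every comparison, and of the wider list up to 6 called genes with the smallest p per comparison. For Lpl and Apoe the 5 most correlated genes were named. Alternatives covered the constant, filter, scaling, probe sets, block, beta-actin ratio, array weights, arrays fitted, the array with conflicting labels, each array and each set.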

Additional observations from a re-analysis of the deposited data

How the results depend on the processing

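Over 26 alternatives (25 for the dependence on genotype), Lpl and Vldlr stayed called in all 26, in both genotypes. Their differences ranged from 5.06 to 6.88 in knockouts and 3.88 to 5.66 in controls for Lpl, and from 2.10 to 2.85 and 2.28 to 3.11 for Vldlr. Apoe kept its sign in all 26 and its call in 23 for knockouts and 15 for controls. Called members numbered 2 to 4 in both genotypes and 0 in every comparison between genotypes. The members were chosen with these values known, so their calls across alternatives are descriptions and add no support. No called value changed sign. The wider list, 13 in knockouts and 15 in controls, gave 2 and 3 with no block for the sets (a pairing by naming set), 2 and 9 with the beta-actin covariate, 3 and 8 without set A and 0 and 3 without set C. In knockouts it gave 4 with the arrays of that comparison alone and 6 with the set B minus array as a control. Leaving out 1 array in turn gave 4 to 14 in knockouts and 6 to 15 in controls, and 0 between genotypes and for the dependence on genotype. The causes were not tested. Centring arrays on their medians moved the median of all genes in controls to -0.22, against -0.02, and in the knockout difference of plus arrays to 0.15, against -0.04, and in the dependence on genotype to 0.11, against -0.02. Of the called genes 37.5% were then higher in knockouts and 27.8% in controls, against 48.2% and 47.7%, and of the wider list 7 rose and 5 fell in knockouts and 6 rose and 4 fell in controls. Signals near the added constant, as in Gpat3, Cd36, Fabp4 and Pparg, limit what the sizes of their differences can show.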

Other observations

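Of the wider list, 16 genes with a probe set lay below the level filter, among them the endothelial anchor of the lipase, Gpihbp1, at 49.3 to 107 signal units over the 12 arrays, its activator Apoc2 at 0.859 to 82.2 and the oxysterol receptor Nr1h3 at 48.7 to 117. Lipg, the endothelial lipase, lay at 48.7 to 296 in knockout plus and 17.3 to 38.1 in knockout minus arrays, and at 65.2 to 260 in control plus and 32.9 to 59.4 in control minus arrays. Olr1, a receptor of oxidised lipoproteins, lay at 43.1 to 78.1 in knockout plus and 14.2 to 31.1 in knockout minus arrays, and at 52.8 to 249 in control plus and 5.60 to 47.6 in control minus arrays. They were not in the test, and were named after their values were seen.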
